A study of Oryza sativa with 2 samples.

Results

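The tonoplast intrinsic proteins (TIPs) are the aquaporins of the vacuole membrane, and the 10 TIP genes of rice were examined here in seedlings of the cultivar 93-11. Members were taken by locus ID and not by level, and all 10 IDs were among the 37896 rows of both deposited tables. The data are 2 poly(A) RNA libraries, replicate 1 and replicate 2, from whole plants of wild-type indica rice at 3 weeks of age. The plants were grown on Yoshida solution with 10 h of light, at 800 µmol per square metre per second, and 14 h of dark. All samples belong to 1 group, so no treatment, genotype or tissue could be compared, and the labels do not say whether the replicates were separate plants, so their spread may be technical. Levels are FPKM, fragment numbers relative to transcript length and to all mapped fragments, as deposited by the authors. It is a level per length, so genes can be set beside each other, with 2 limits that hold for every pair. The sources used here do not give how fragments matching more than 1 gene were assigned. They also do not name the genome aligned to, from which 93-11 may diverge more at some genes than at others. The fragment counts behind the values are unknown, so no counting interval could be given. The FPKM of all rows summed to 741624 in replicate 1 and 668305 in replicate 2.

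Aquaporins are channel proteins that let water, and in some cases small uncharged solutes, pass through a membrane. TIPs sit in the tonoplast, the membrane around the vacuole, where they let water move quickly between the vacuole and the cytoplasm as cells expand or change their turgor. The plant TIP family is divided into subgroups numbered from TIP1 to TIP5. In Arabidopsis, TIP1 and TIP2 proteins are the main forms of vegetative tissue, TIP2 and some other TIPs also pass ammonia or urea, TIP3 proteins belong to the protein storage vacuoles of seeds, and TIP5-1 is known from pollen. The names are written here with a hyphen, as most of them are in RefSeq. RefSeq, in the Japonica assembly ASM3414082v1, listed 9 of the 10 names, and all 9 were on the chromosome that the locus ID gives. TIP4-3 was not matched. The match was by name, since that table does not use these locus IDs.

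The seedlings expressed the TIP genes very unevenly. TIP1-1, TIP2-2 and TIP4-1 had means from 807.6 to 1908 FPKM, TIP1-2 and TIP2-1 near 185 and 93 FPKM, and TIP3-1 near 19 FPKM. TIP4-2 and TIP4-3 were a few FPKM, TIP3-2 was below the detection level of 1 FPKM, and TIP5-1 was listed at 0. Of the 10 members, 8 were at 1 FPKM or more in both libraries, where 53.1% of all listed loci were. At 10 FPKM or more in both libraries there were 6 members, with 24.6% of all loci at that level. At 100 FPKM or more there were 4 members, TIP1-1, TIP2-2, TIP4-1 and TIP1-2, with 2.15% of all loci. At 1000 FPKM or more there was TIP1-1 alone, with 0.124% of all loci. These shares describe the tables and carry no test.

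**Figure D1:**
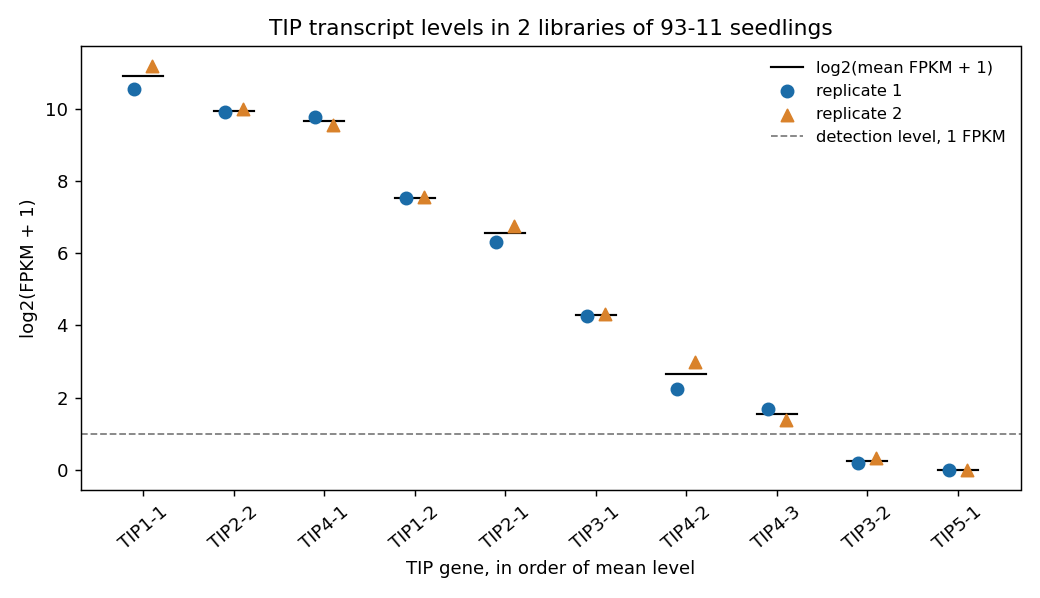
Level of each TIP gene as log2(FPKM + 1), with genes in order of mean level, a circle for replicate 1, a triangle for replicate 2, a bar for the mean and a dashed line at the detection level of 1 FPKM. The order runs from TIP1-1, at 1503 and 2313 FPKM, to TIP5-1, listed at 0 in both libraries, and both libraries give the same order.

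The TIP1 subgroup held the highest member of the family. TIP1-1 (LOC_Os03g05290, chromosome 3) stood at 1503 FPKM (replicate 1) and 2313 FPKM (replicate 2), with a mean of 1908 ± 573 FPKM (SD, n = 2). It was the locus of rank 50 among all 37896 rows in replicate 1 and of rank 20 in replicate 2. Its paralogue TIP1-2 (LOC_Os01g74450, chromosome 1) had 184.4 and 185.1 FPKM, 184.7 ± 0.494 FPKM, which put it above 98.8% of all loci by mean. The pair therefore differed 8.15-fold in replicate 1 and 12.5-fold in replicate 2, and TIP1-2 itself differed by only 1.00-fold between the libraries. Both TIP1 genes together made up 46.8% of the summed TIP FPKM in replicate 1 and 56.9% in replicate 2.

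In the TIP2 subgroup, the second member was the abundant one. TIP2-2 (LOC_Os06g22960, chromosome 6) measured 951.4 FPKM (replicate 1) and 1008 FPKM (replicate 2), with a mean of 979.8 ± 40.2 FPKM (SD, n = 2). TIP2-1 (LOC_Os02g44080, chromosome 2) had 78.2 and 107.1 FPKM, 92.7 ± 20.4 FPKM. TIP2-2 thus lay 12.2-fold above TIP2-1 in replicate 1 and 9.42-fold above it in replicate 2. TIP2-1 was still among the more abundant transcripts of the seedlings, above 97.1% of all loci by mean. In bulk tissue, a gene active in a few cells and a gene weakly active in many cannot be told apart, so a level says nothing of which organ it came from.

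The TIP4 subgroup had the widest range among members that were all detected. TIP4-1 (LOC_Os05g14240, chromosome 5) reached 867.6 FPKM (replicate 1) and 747.6 FPKM (replicate 2), with a mean of 807.6 ± 84.9 FPKM (SD, n = 2). TIP4-2 (LOC_Os01g13120, chromosome 1) had 3.67 and 6.87 FPKM, and TIP4-3 (LOC_Os01g13130, chromosome 1) had 2.24 and 1.58 FPKM. TIP4-1 was 236.2-fold above TIP4-2 in replicate 1 and 108.9-fold above it in replicate 2. TIP4-2 and TIP4-3 carry successive locus numbers, with no listed locus between them. TIP4-2 was the higher of this neighbouring pair in both libraries, by 1.64-fold in replicate 1 and 4.34-fold in replicate 2. The sources used here do not give how fragments that match more than 1 TIP gene were assigned, so the split within the pair is uncertain.

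The TIP3 and TIP5 genes, known in Arabidopsis from seeds and pollen, were the low end of the family with 1 exception. TIP3-1 (LOC_Os10g35520, chromosome 10) stood at 17.98 FPKM (replicate 1) and 19.1 FPKM (replicate 2), with a mean of 18.5 ± 0.766 FPKM (SD, n = 2), above 83.3% of all loci by mean. TIP3-2 (LOC_Os04g44570, chromosome 4) had 0.142 and 0.242 FPKM, below the detection level in both libraries. TIP3-1 lay 126.3-fold above TIP3-2 in replicate 1 and 78.8-fold above it in replicate 2, a ratio that rests on values of TIP3-2 under 1 FPKM. TIP5-1 (LOC_Os04g46490, chromosome 4) was listed at 0 in both libraries, as were 26.2% of all loci. A transcript too rare to be sampled and one that was never made would both give this value. So would a locus that diverges in 93-11 from the reference, since the IDs have the form used for japonica rice and the sources used here do not name the genome aligned to.

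The order of the 10 members was the same in both libraries. In descending order it was TIP1-1, TIP2-2, TIP4-1, TIP1-2, TIP2-1, TIP3-1, TIP4-2, TIP4-3, TIP3-2 and TIP5-1. For all 9 pairs of neighbours in this order, the lower library of the higher gene lay above the higher library of the lower gene. This held as deposited and after scaling both libraries to the same total. In the last pair, TIP3-2 and TIP5-1, both genes were below the detection level of 1 FPKM, so their order says little. An exact two-sided permutation test of 2 values against 2, which ignores that both genes share the libraries, cannot give a p below 0.333. That test could not call any pair of neighbours different, and no other test, paired or not, was run. The closest pair was TIP2-2 and TIP4-1, with TIP2-2 higher by 1.10-fold in replicate 1 and 1.35-fold in replicate 2. TIP4-1 lay above TIP1-2 by 4.71-fold in replicate 1 and 4.04-fold in replicate 2, and TIP2-1 above TIP3-1 by 4.35-fold and 5.62-fold. Steps between lower members varied more with the library, by 4.90-fold and 2.78-fold from TIP3-1 to TIP4-2 and by 1.64-fold and 4.34-fold from TIP4-2 to TIP4-3.

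As a family, the TIP genes held 0.487% of all summed FPKM in replicate 1 and 0.657% in replicate 2, 0.572% ± 0.120 (SD, n = 2). The TIP levels added up to 3609 FPKM (replicate 1) and 4389 FPKM (replicate 2). TIP1-1 took 41.7% of it in replicate 1 and 52.7% in replicate 2, TIP2-2 took 26.4% and 23.0%, and TIP4-1 took 24.04% and 17.0%. These 3 genes, each from another subgroup, together made up 92.1% and 92.7% of the TIP transcript level. The 5 lowest members together made up 0.666% and 0.632%. As deposited, the difference in the family total lay with TIP1-1. Without TIP1-1, the remaining 9 members summed to 2106 FPKM in replicate 1 and 2076 FPKM in replicate 2. Shifts within that sum went both ways, with TIP4-1 lower and TIP2-2 and TIP2-1 higher in replicate 2. As a share of all summed FPKM, these 9 members held 0.284% in replicate 1 and 0.311% in replicate 2.

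**Figure D2:**
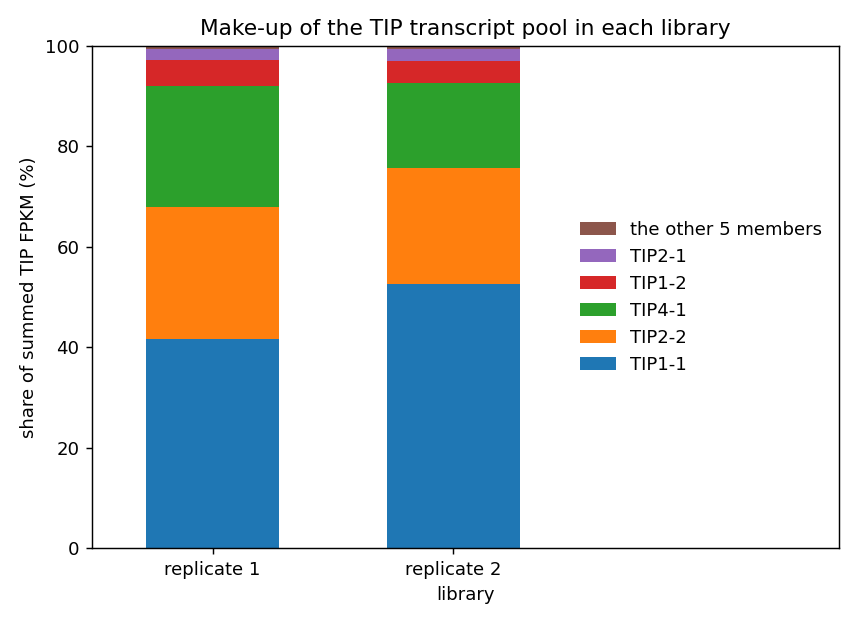
Share of the summed TIP FPKM, in percent, held by each of the 5 highest members and by the other 5 members together, with 1 bar for each library. TIP1-1 makes up 41.7% of the bar in replicate 1 and 52.7% in replicate 2, and TIP1-1, TIP2-2 and TIP4-1 fill over 92% of both.

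The members were compared between the replicates. Among the 6 members with a mean of 10 FPKM or more, none was more than 2-fold apart once both libraries had been scaled to the same total and 1 FPKM added. Over all 10366 loci of that level the share was 6.52%. With 6 members, a share of that size would amount to less than 1 gene, so the count of 0 says little. As deposited, 7 members were higher in replicate 2 and 2 were higher in replicate 1, TIP4-1 and TIP4-3. Scaling to the same total or by the median of ratios, which moves every ratio towards replicate 2, left TIP4-1 and TIP4-3 higher in replicate 1. Of the 8 detected members, 6 were higher in replicate 2 as deposited, where 43.3% of all loci at 1 FPKM or more in both libraries were. Among these 6, TIP1-2, TIP2-2 and TIP3-1 were nearly level, at 1.00-fold, 1.06-fold and 1.06-fold, so the count says little of a shared direction. For ratios without an added 1 FPKM, taken as replicate 1 over replicate 2, scaling to the same total is a log2 shift of -0.15. With 1 FPKM added, as here, low members moved less. TIP4-3 went from 0.33 as deposited to 0.23 after scaling to the same total, and TIP3-2 from -0.12 to -0.14. Over the 8 members at 1 FPKM or more in both libraries the median log2 ratio was -0.08 as deposited and -0.23 after that scaling. Over all 20128 loci at that level it was 0.06 and -0.07.

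On the scale of log2(FPKM + 1), which shrinks the ratios of low members, TIP4-2, TIP1-1 and TIP2-1 were the members furthest apart. TIP1-1 was 1.54-fold higher in replicate 2 as deposited, and its log2 ratio after scaling to the same total was -0.77. Of all loci that averaged at least 10 FPKM, 10.1% were at least as far apart. TIP2-1 was 1.37-fold higher in replicate 2, with a scaled log2 ratio of -0.60, and 15.8% of those loci were at least as far apart. TIP4-2 was 1.87-fold higher in replicate 2, the largest fold of a detected member, with a scaled log2 ratio of -0.88 at a mean of 5.27 FPKM. Of the members with low levels, TIP3-2 was 1.70-fold higher in replicate 2 and TIP4-3 was 1.42-fold higher in replicate 1, both as deposited. Among the 6 most abundant members, TIP4-1 was the closest after scaling to the same total, with a log2 ratio of 0.06, and TIP1-2 the closest as deposited, at 1.00-fold. TIP1-1 went against the direction of most of the very abundant loci. Of the 59 loci that averaged at least 1000 FPKM, only 8.47% were higher in replicate 2 as deposited and 11.9% after scaling to the same total, TIP1-1 among them under both. Their median log2 ratio was 0.54 as deposited, that of TIP1-1 was -0.62, and no other of the 59 lay as far in favour of replicate 2. TIP2-2 and TIP4-1, just below that level, had ratios of -0.08 and 0.21. None of these differences has a replicate check, since each side is 1 library.

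**Figure D3:**
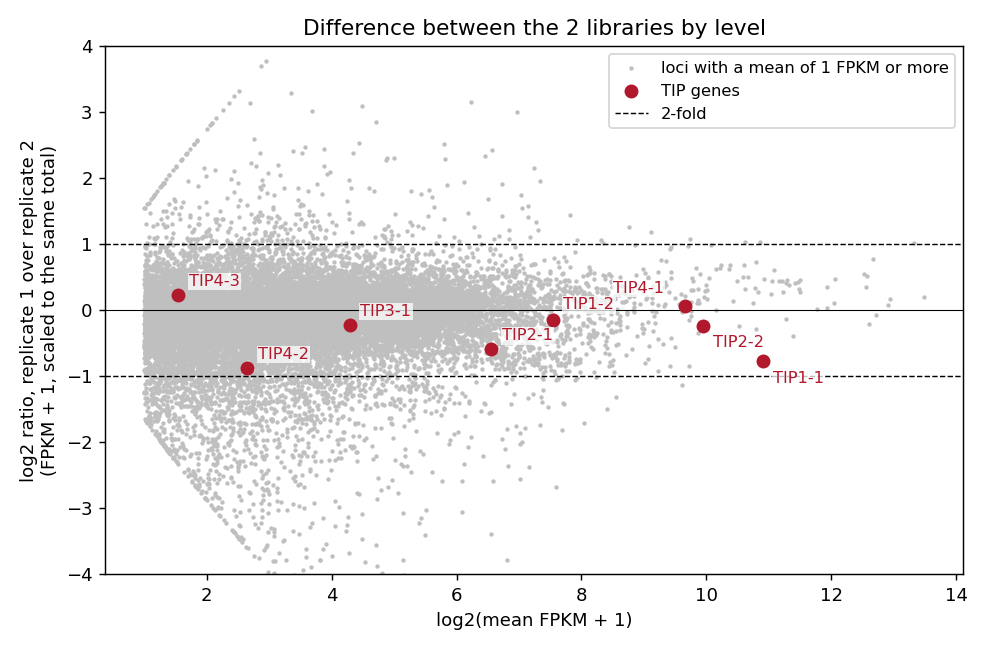
Log2 ratio of replicate 1 over replicate 2, from FPKM + 1 scaled to the same total, against log2(mean FPKM + 1), for loci averaging at least 1 FPKM in grey and the 8 TIP genes among them in red. On this scale, which shrinks the ratios of low members such as TIP4-2, all 8 TIP genes lie between the dashed lines at 2-fold. TIP4-2 and TIP1-1 are lowest at -0.88 and -0.77, and 81 of the 21411 loci lie beyond the axis.

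The loci beside the TIP genes were read as their genomic context. For each member, the loci listed next below and next above it in locus number on the same chromosome were read, which gave 18 neighbours that are not TIP genes themselves. All 12 neighbours of the 6 most abundant members were below their TIP gene, with means from 0 to 25.9 FPKM and a median of 3.43 FPKM. These members lie above 83.3% to 99.9% of all loci, so that most loci would be below them wherever they stood, and the count carries no further meaning. The loci on either side of TIP1-1 had means of 21.3 and 25.9 FPKM, against 1908 FPKM for TIP1-1. The loci beside TIP2-2 had means of 2.65 and 0 FPKM, and those beside TIP4-1 had means of 5.35 and 0.0409 FPKM. The loci beside TIP3-1 had means of 4.22 and 11.2 FPKM, against 18.5 FPKM for TIP3-1. The members of low level were not in silent stretches throughout. The locus next below TIP3-2 had 13.9 and 13.4 FPKM in the libraries, and the locus next below TIP5-1 had 23.3 and 18.4 FPKM, while the locus next above TIP5-1 was listed at 0 in both libraries. Locus numbers give an order and not a distance in bases.

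**Figure D4:**
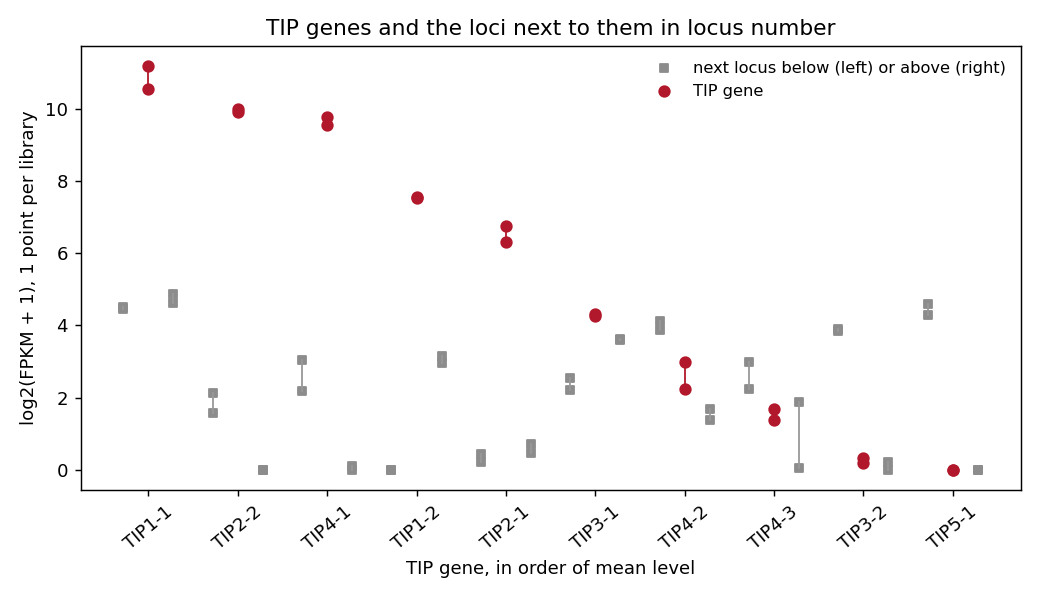
Level as log2(FPKM + 1) of each TIP gene in red and of the loci next below (left) and next above (right) in locus number in grey, with 1 point for each library joined by a line. All 12 neighbours of the 6 most abundant TIP genes lie below them, and for TIP4-2 and TIP4-3 one of the grey pairs is the other TIP4 gene.

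No other aquaporin could be set beside the TIP genes, since no source used here pairs further locus IDs with gene names. For the same reason the label of whole plant was not checked against leaf or root marker genes. With 2 libraries of 1 group there is no pattern across conditions, so no gene is named as similar in pattern to a TIP gene.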

How the data were processed

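Poly(A) RNA of 2 seedling libraries was sequenced on an Illumina HiSeq X-ten after NEBNext library preparation, per the labels. Each library's deposited table pairs a locus name with its FPKM, per the file headers, and the submitters' processing notes name TopHat2 and Cufflinks without versions. The sources used here give no genome build, annotation, strand handling or filters. Both tables list the same 37896 rows with 37895 distinct IDs.

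The members and lists were chosen with earlier results of these data known. All 10 members are named and no other locus is. Detection was 1 FPKM or more. Libraries were compared on log2(FPKM + 1), which understates ratios of low loci, after scaling to the same total, with a limit of 2-fold at a mean of 10 FPKM or more. Shares use FPKM as deposited. No test across loci was possible with 1 group, and the alternatives are given in the closing section.

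Absolute depth is unknown. Among 1169 loci between 0.001 and 0.3 FPKM in both libraries, the log2 ratios of replicate 1 over replicate 2 were most crowded from -0.21 to -0.18, where 38 loci fell in 1 bin against 8 in the median bin. A bin of this kind can mark loci with equal fragment numbers, and whole counts could not be recovered. RefSeq names were matched by symbol or synonym, and none of the 10 locus IDs was found in that table. Planned summaries of protein identity and promoter motifs were not run, since no sequences were at hand. The software was Python 3.11.15 with pandas 2.3.3, numpy 2.4.6 and scipy 1.17.1, and figures were drawn with matplotlib 3.10.9.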

Additional observations from a re-analysis of the deposited data

How the results depend on the processing

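No paired comparison of groups was possible because both libraries belong to 1 group, and no paired test between genes was run. The count of 8 detected members was 9 at 0.1 FPKM, where 65.8% of all loci were detected, 6 at 5 FPKM, where 35.8% were, and 8 after scaling to the same total and in each library alone. The TIP share of summed FPKM, 0.572%, was 0.0611% when the 100 most abundant loci were left out of the table, which removes TIP1-1, TIP2-2 and TIP4-1, and 0.297% without TIP1-1, a setting chosen after seeing the data. It was 0.574% over rows at 1 FPKM or more, and ranged from 0.487% to 0.657% in single libraries. The share of the highest member within the family was 41.7% to 52.7% in single libraries. Without TIP1-1 (chosen after seeing the data) the highest remaining member, TIP2-2, took 46.9% of the rest. The number of members apart between the libraries stayed 0 under other pseudocounts, level minimums and scalings, each changed alone. Smaller pseudocounts were tried only at a mean of 10 FPKM or more. Members below that level, such as TIP4-2, were compared only with 1 FPKM added, which shrinks their ratios, so the 0 says little of them. At 1.5-fold the number was 2 of 6, TIP1-1 and TIP2-1, where 16.4% of all loci of that level were apart. The median log2 ratio of detected members was negative under every setting tried, from -0.23 scaled to the same total to -0.08 as deposited. With the depth unknown, nothing can be said of small levels of TIP3-2 and TIP5-1.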

Other observations

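TIP3-1, a member of the subgroup known in Arabidopsis from seed storage vacuoles, was detected in both seedling libraries at 17.98 and 19.1 FPKM, while TIP3-2 was not detected in either. Among the detected members, the deposited values of TIP3-1 and TIP4-1 carry 7 significant digits in both libraries, and those of the other 6 carry at most 6. More than 6 digits in both libraries were found at 25.9% of the loci at 1 FPKM or more in both. The sources used here do not give how the longer values arose.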
